A study of Mus musculus with 11 samples.

Results

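Skeletal muscle genes were followed in whole mouse skin through 37 genes of the striated muscle fibre. Each gene was read through the probe sets annotated to it alone, and the brightest of these over all arrays stood for the gene. Of the 37 genes, 36 had such a probe set, among 18194 genes with one on the array. Xirp2, which encodes an actin-binding protein of muscle attachment sites, had none and was not analysed here. Mice received vehicle (3 mice) or 1 mg/kg of ABBV-075 (8 mice), an inhibitor of the BET bromodomain proteins also called mivebresib, and skin was taken 6 h (4 mice) or 24 h (4 mice) after dosing. Each mouse gave 1 array of total skin RNA. The labels give neither the strain, age and sex of the mice nor the site of the skin, and they state no collection time for vehicle. The question was how skin transcripts answer to BET inhibition over time.

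Mouse skin rests on a thin sheet of striated muscle, the panniculus carnosus, so RNA from whole skin carries transcripts of muscle fibres. In a fibre, myosin thick filaments pull on actin thin filaments, and troponin and tropomyosin on the thin filament make the pull depend on calcium. Calcium leaves its store through the ryanodine receptor and is pumped back after each contraction. Fast fibres have their own forms of myosin, troponin and calcium pump and draw largely on glycogen and phosphocreatine. The 37 genes fall into 11 of the fast fibre, 12 of the sarcomere's common frame, 8 of calcium handling and 6 of energy supply.

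Values are log2(intensity + 16) after quantile normalization between arrays, a scale whose floor is 4.00 and whose highest value was 14.04. All 36 genes stood above the filter for dim genes, which was the 40th percentile of the array. They did so on 11 of 11 arrays, except Cacna1s, which did on 10. Of 10 slow-fibre genes, 8 stood above the filter, with a mean of 7.24 to 7.71 on each array. The other two were the slow myosin gene Myh7, which did not exceed 4.21 on any array, and the slow troponin gene Tnni1, which did not exceed 4.44. Of 8 cardiac markers, 6 lay below the filter (Myh6, Nppa, Nppb, Tnni3, Mybpc3 and Ryr2), with Myh6 at 4.52 or less. Of the keratinocyte markers of the labelled tissue, 10 of 10 basal and 10 of 10 suprabasal genes stood above the filter. A gene had to exceed it on 3 arrays, and 13709 of 18194 genes did, so these counts alone say little about tissue. The mean of the basal list was 9.14 to 11.46 on each array and that of the suprabasal list 11.21 to 11.88.

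The deposited intensities differed in brightness, with trimmed means per array of 82.8 to 244. Without normalization between arrays, the median difference from vehicle over all genes was -0.68 at 6 h and -0.62 at 24 h. Differences from vehicle given below as deposited are to be read against those medians. The 5' to 3' signal ratio of beta-actin, which is low where RNA is shortened, was 0.484 to 0.593 in vehicle, 0.0725 to 0.425 at 6 h and 0.198 to 0.529 at 24 h. The lowest ratio belonged to 6 h replicate 5. Every 6 h ratio lay below every vehicle ratio, so ratio and treatment cannot be told apart in that comparison. Differences at 6 h with the ratio as a covariate are thus not corrected differences. With 3 or 4 mice a group, precision is set by how few arrays there are.

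The muscle genes varied between mice of a group more than most genes did. Their mean in the vehicle arrays was 10.51, 11.46 and 11.67 for replicates 1, 3 and 4. At 6 h it was 11.28, 11.63, 10.92 and 10.76 for replicates 1, 2, 3 and 5. At 24 h it was 11.69, 11.24, 11.56 and 12.19 for replicates 1, 2, 3 and 4. Vehicle replicate 1 was low and 24 h replicate 4 high, and the 3 groups overlapped. Vehicle replicate 1 gave the lowest vehicle value in 35 of 36 genes, Myh4 being the exception, and the lowest value of all 11 arrays in 24. The highest value of all 11 arrays was that of 24 h replicate 4 in 25 genes. The pooled SD within groups had a median of 0.54 over the muscle genes, against 0.34 over the 13709 genes kept. Between the vehicle arrays alone, the range had a median of 1.26 over the muscle genes and 0.41 over all genes kept. This vehicle range exceeded the size of the 24 h difference in 35 of 36 genes, and that of the 6 h difference in 34 of 36. In bulk RNA, fewer muscle fibres in a sample and less muscle RNA per fibre cannot be told apart.

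**Figure D1:**
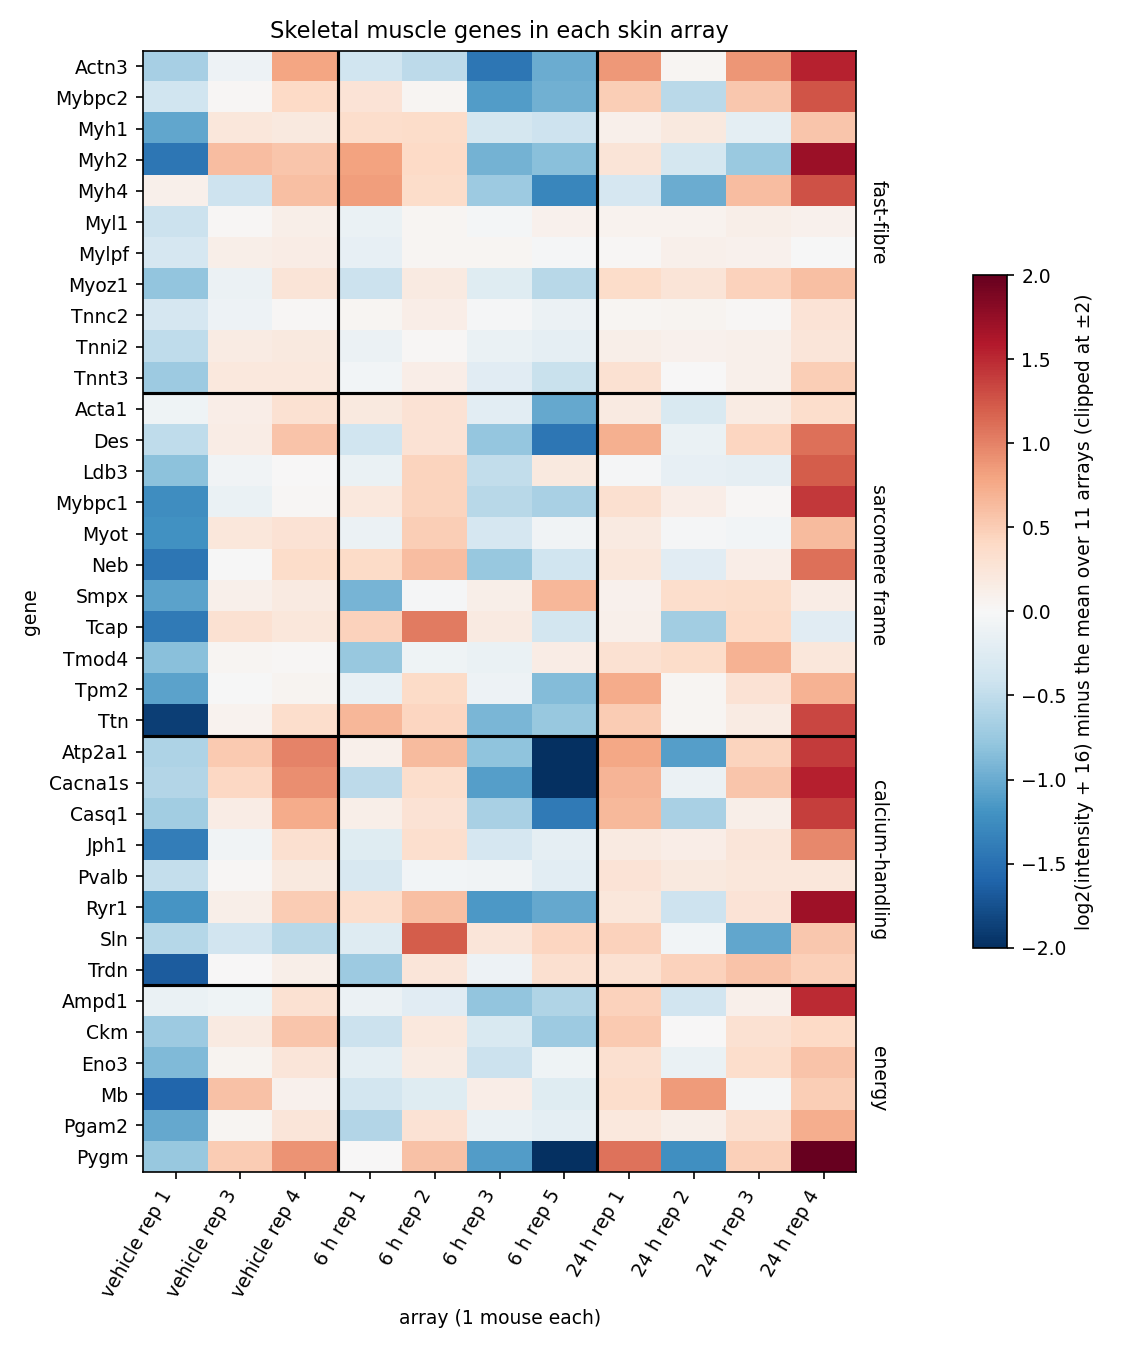
Heat map of 36 muscle genes (rows, by role) on 11 arrays (columns, 1 mouse each), as log2(intensity + 16) minus the gene's mean over the 11 arrays, with colours clipped at 2 on either side. Vehicle replicate 1 is blue in nearly every row and 24 h replicate 4 red in most, while the bright genes Mylpf, Myl1 and Tnnc2 stay pale throughout.

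How far a gene moved with the array went with how bright its probe set was. For the 8 genes whose mean lay above 13 (Myh1, Mylpf, Myl1, Tnnt3, Tnni2, Tnnc2, Acta1 and Pvalb), the range over 11 arrays was 0.49 (Mylpf) to 1.60 (Myh1). For the other 28 genes it was 1.29 (Ckm) to 4.91 (Pygm). Whether the narrow range of the brightest probe sets comes from their nearness to the top of the scale was not tested.

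Taken as a description over 11 arrays, most muscle genes followed the mean of the others. Pearson's r with that mean was 0.97 for Tnnt3, a fast troponin subunit, and 0.95 for Ryr1. It was lowest for Sln (0.18), Smpx (0.28) and Tmod4 (0.48). These 3 genes keep their own order of arrays: Sln was highest in 6 h replicate 2, Smpx in 6 h replicate 5 and Tmod4 in 24 h replicate 3. Genes outside the 37 that came closest to the muscle mean over the 11 arrays were Srl (r = 0.99), Myom1 (0.98), Aldoa (0.97), Idh3b (0.96) and Pde4dip (0.96). They were read from the same RNA samples as the muscle genes. Srl encodes the calcium-store protein sarcalumenin and Myom1 the M-band protein myomesin. Srl read 9.33, 10.46 and 10.79 in vehicle, 10.37, 10.73, 9.56 and 9.60 at 6 h, and 10.68, 10.13, 10.51 and 11.61 at 24 h, which is the same low vehicle array and the same high 24 h array.

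The bases before the start sites of the muscle genes were read for shared motifs. Whether such motifs bear on how the genes moved between arrays was not tested. RefSeq windows of 250 bases before the start (build GRCm38.p6) were found for 26 of the 37 genes, as 30 windows. Actn3, Ampd1, Jph1, Myot, Myoz1, Neb, Sln, Tcap, Tnni2, Tnnt3 and Trdn were not matched. The palindrome CAGCTG, the E-box form preferred by MyoD and myogenin, stood in 50.0% of the muscle windows and in 13% of all 32851 windows. The broader E-box CANNTG, which includes CAGCTG, stood in 76.7% and 66.2%. A MEF2 motif, read on both strands, stood in 6 of 30 muscle windows against 2.92% of all, and the CArG box of serum response factor in 13.3% against 1.47%. The letters TATAAA, also on both strands, stood in 13.3% and 12.4%. A match of letters is a description of the window and not of binding. Of each role group, the window of the gene with the widest range over the arrays is shown, and Myh4 is added because its window holds the most of these motifs. Matches are in capitals, with TATAAA marked on the gene's strand alone. CANNTG other than CAGCTG is left unmarked, and each run is 5′ to 3′ on the gene's strand.
Myh4: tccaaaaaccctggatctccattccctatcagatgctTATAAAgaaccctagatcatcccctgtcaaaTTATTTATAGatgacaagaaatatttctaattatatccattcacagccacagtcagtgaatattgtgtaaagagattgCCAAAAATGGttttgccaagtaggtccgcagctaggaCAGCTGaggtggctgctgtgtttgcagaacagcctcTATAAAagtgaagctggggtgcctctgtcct
Myh2: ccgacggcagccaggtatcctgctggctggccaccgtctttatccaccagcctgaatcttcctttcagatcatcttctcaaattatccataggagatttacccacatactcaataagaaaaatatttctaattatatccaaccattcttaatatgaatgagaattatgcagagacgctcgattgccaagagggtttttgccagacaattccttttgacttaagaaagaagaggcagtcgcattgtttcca
Ttn: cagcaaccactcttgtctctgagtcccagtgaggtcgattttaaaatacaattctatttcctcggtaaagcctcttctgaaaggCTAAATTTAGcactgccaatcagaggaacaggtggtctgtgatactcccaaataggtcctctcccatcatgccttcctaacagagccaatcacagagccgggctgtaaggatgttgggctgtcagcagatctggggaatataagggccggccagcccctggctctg
Atp2a1: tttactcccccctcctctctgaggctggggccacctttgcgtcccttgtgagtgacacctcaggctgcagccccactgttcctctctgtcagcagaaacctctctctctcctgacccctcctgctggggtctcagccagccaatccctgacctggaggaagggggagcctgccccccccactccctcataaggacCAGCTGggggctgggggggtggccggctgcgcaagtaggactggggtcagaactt
Pygm: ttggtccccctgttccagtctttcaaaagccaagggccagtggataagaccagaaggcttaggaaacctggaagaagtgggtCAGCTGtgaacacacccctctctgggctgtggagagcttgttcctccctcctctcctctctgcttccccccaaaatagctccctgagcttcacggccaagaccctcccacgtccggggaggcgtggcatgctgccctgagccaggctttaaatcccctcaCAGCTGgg
The Myh4 window, chr11:67237562-67237811 on the plus strand, holds CAGCTG at 67, a MEF2 motif at 182 and a CArG box at 104 bases before the start. On the gene's strand it holds TATAAA at 213 and 31 bases. Its MEF2 stretch includes TTTATA, which is TATAAA on the other strand. The Myh2 window, chr11:67170777-67171026 on the plus strand of the same chromosome, holds none of these motifs. The Ttn window, chr2:76982548-76982797 on the minus strand, holds a MEF2 motif 166 bases before the start. The Atp2a1 window, chr7:126463074-126463323 on the minus strand, holds CAGCTG at 55 bases. The Pygm window, chr19:6384158-6384407 on the plus strand, holds CAGCTG at 168 and at 8 bases. Myh4 and Myh2 are both fast myosin heavy chain genes, and the range of their values over the arrays was 2.58 and 3.15.

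The first comparison was of 6 h with vehicle. No muscle gene passed the limma adjusted p of 0.05 in either direction (0 of 36), and no gene of the 13709 did (0%). Of the 36 genes, 19 lay above vehicle, where 50.4% of all genes did, but only 1 of the 36 in the values as deposited, whose median over all genes was -0.68. The median difference was 0.027, against 0.0037 over all genes kept. Without vehicle replicate 1 the median was -0.30, with 4 genes above vehicle, and without vehicle replicate 4 it was 0.21, with 25 above. With the actin ratio as a covariate, 32 of 36 genes lay above vehicle, with a median of 0.38. The actin ratios of the groups do not overlap, so this fit cannot separate actin ratio from treatment. At an unadjusted p under 0.05, 1 of 36 genes was higher (Sln), where 7.99% of all genes were, and 0 were lower, where 8.07% were. In 1 gene, again Sln, the groups did not overlap upward, as was so for 9.77% of all genes, and 0 genes did so downward, against 8.78%.

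The comparison of 24 h with vehicle likewise gave no call among the muscle genes (0 of 36) or among all genes (0%). Here 35 of 36 muscle genes lay above vehicle, where 47.6% of all genes did, whereas in the values as deposited, with a median of -0.62 over all genes, 11 of 36 did. The median difference was 0.43, against -0.020 over all genes kept. It was 0.69 with the actin ratio as a covariate, 0.67 without vehicle replicate 4, 0.12 without vehicle replicate 1 and 0.25 without 24 h replicate 4. Without both vehicle replicate 1 and 24 h replicate 4 it was -0.048, with 16 of 36 genes above vehicle. At an unadjusted p under 0.05, 5 of 36 genes were higher (Myoz1, Tmod4, Tpm2, Mybpc1 and Trdn), where 3.15% of all genes were, and 0 were lower, where 4.47% were. With the replicate number as a block that count was 16 of 36, still with 0 calls at an adjusted p of 0.05. That fit dropped 24 h replicate 2, the array with the lowest muscle mean of its group. Without vehicle replicate 1 the count was 0 of 36. The share of all genes at that p was not computed in either fit. These counts thus cannot be set against 3.15%. In 5 genes (Myoz1, Tnnc2, Tmod4, Pvalb and Trdn) the lowest 24 h value exceeded the highest vehicle value, as was so for 5.09% of all genes. Downward this held for 0 muscle genes and 6.03% of all.

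Between the treated groups, 24 h minus 6 h shared both sets of treated arrays with the comparisons above. It gave 0 calls of 36, and 0% of all genes were called. Of the 36 genes, 34 lay higher at 24 h, Sln and Tcap being lower, where 47.4% of all genes lay higher; the count was 33 as deposited and 30 after median scaling. The median difference was 0.49, against -0.019 over all genes kept. It was 0.32 without 24 h replicate 4 and 0.27 with the actin ratio as a covariate. At an unadjusted p under 0.05, 8 of 36 genes were higher (Actn3, Myoz1, Tmod4, Des, Cacna1s, Pvalb, Ckm and Ampd1), where 3.76% of all genes were, and 0 were lower, where 5.5% were. With the block that count was 3 of 36, in a fit where the share of all genes was not computed. The arrays did not overlap, with 24 h above 6 h, in 5 genes (Actn3, Myoz1, Tnni2, Tmod4 and Pvalb), as was so for 1.92% of all genes, and 24 h lay fully below 6 h in 0, against 3.54%.

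**Figure D2:**
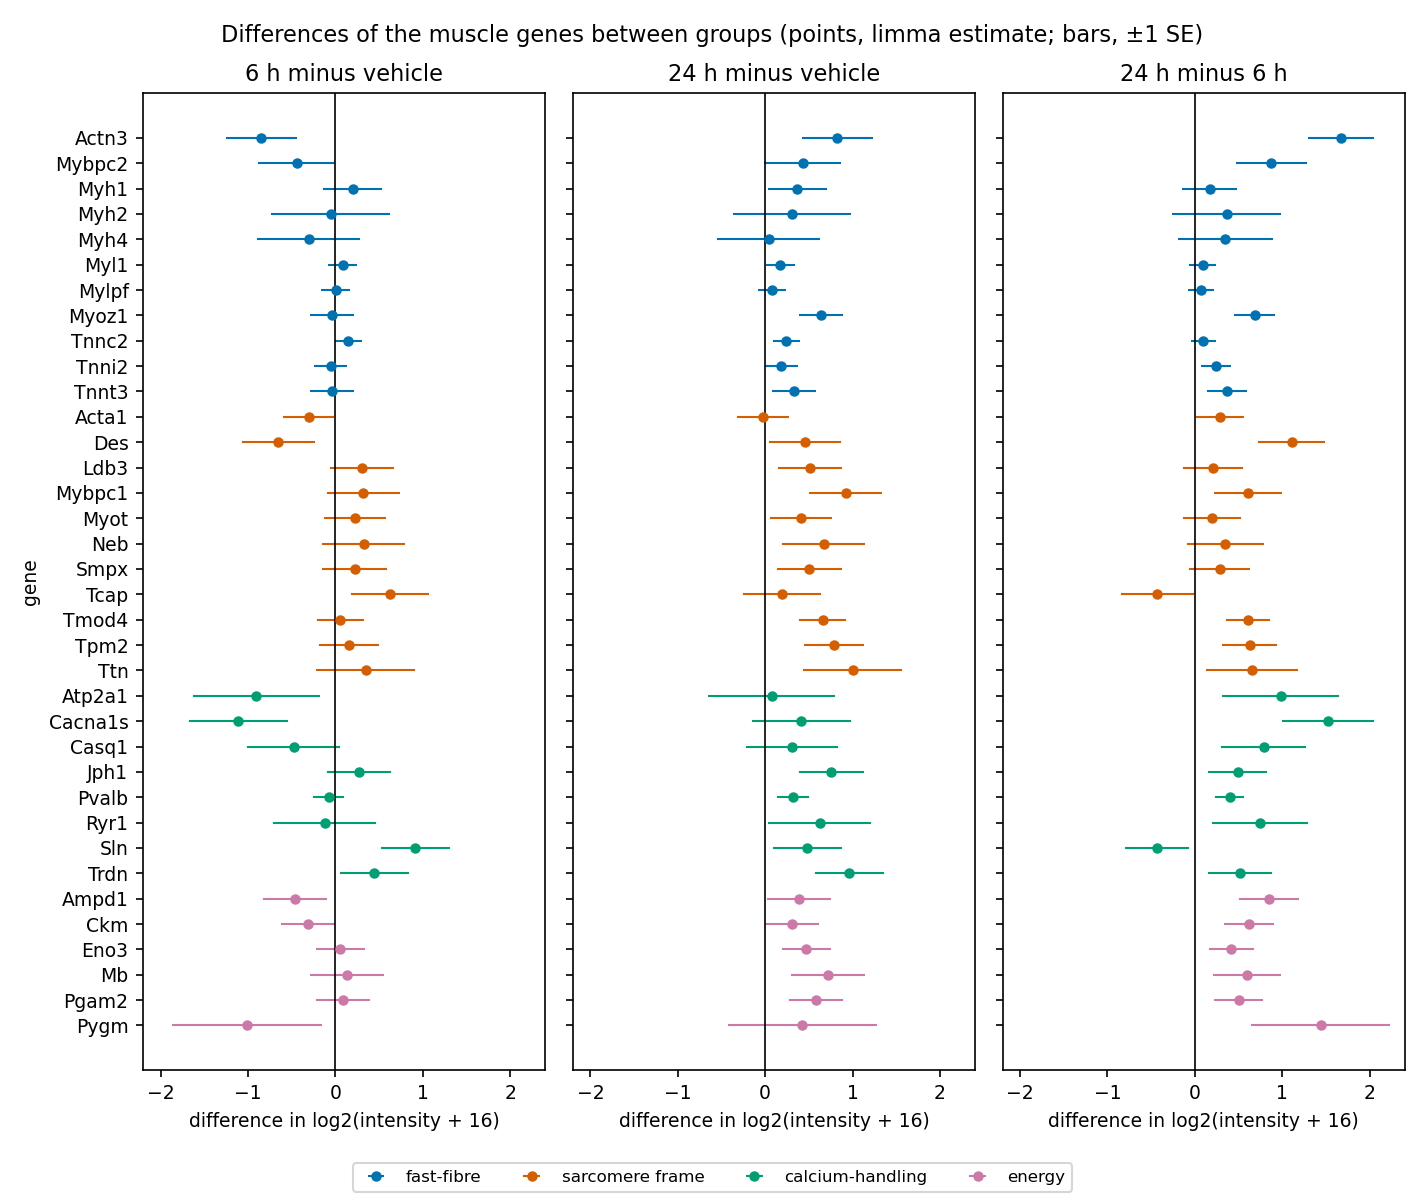
Difference in log2(intensity + 16) of 36 muscle genes between groups, 1 panel per comparison, with the limma estimate as a point and 1 SE as the bar (vehicle n = 3, 6 h n = 4, 24 h n = 4). Points straddle 0 at 6 h (19 of 36 above), lie right of 0 for 35 of 36 genes at 24 h (11 of 36 in the values as deposited), and Actn3 is farthest right between 24 h and 6 h.

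The 11 fast-fibre genes had median differences of -0.042 at 6 h, 0.31 at 24 h and 0.35 between 24 h and 6 h. Relative to vehicle the median was -0.35 and -0.071 as deposited, and at 6 h it was 0.34 after median scaling. With single arrays left out, the 6 h median ran from -0.30 (without vehicle replicate 1) to 0.12 (without vehicle replicate 4), and the 24 h median from 0.019 to 0.48 for the same arrays. The 24 h minus 6 h median was 0.096 without 24 h replicate 4.

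Actn3 encodes the alpha-actinin that anchors thin filaments at the Z-disc of fast fibres. It read 9.63, 10.19 and 11.08 in vehicle, 9.89, 9.77, 8.85 and 9.30 at 6 h, and 11.16, 10.33, 11.17 and 11.83 at 24 h. All 24 h arrays lay above all 6 h arrays, while vehicle overlapped both. Actn3 differed by -0.85 ± 0.41 (SE) at 6 h, with a limma adjusted p of 0.332, and by 0.82 ± 0.41 at 24 h, with an adjusted p of 0.655. The 6 h difference was -0.46 without vehicle replicate 4, and the 24 h difference 0.49 without vehicle replicate 1. Between 24 h and 6 h the difference was 1.67 ± 0.38, or 3.19-fold, with a limma p of 0.000922 and an adjusted p of 0.208. That was the smallest p of any muscle gene in any comparison. With each array left out in turn this difference ran from 1.44 to 1.94 and the adjusted p from 0.162 to 0.437.

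Myoz1 encodes a Z-disc protein that binds calcineurin and alpha-actinin. It read 9.96, 10.63 and 11.001 in vehicle, 10.32, 10.93, 10.51 and 10.20 at 6 h, and 11.11, 11.01, 11.21 and 11.36 at 24 h. The 24 h arrays were the highest throughout, though 24 h replicate 2 exceeded vehicle replicate 4 by little. The 24 h difference from vehicle was 0.64 ± 0.25 (limma adjusted p = 0.597), 0.36 without vehicle replicate 1 and -0.071 in the values as deposited. At 6 h Myoz1 differed by -0.042 ± 0.25 (adjusted p = 0.949), and 24 h minus 6 h was 0.68 ± 0.23 (adjusted p = 0.391). A second, dimmer Myoz1 probe set gave 0.72 at 24 h.

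Mybpc2, the fast myosin-binding protein C, read 10.35, 10.76 and 11.13 in vehicle, 11.02, 10.78, 9.63 and 9.78 at 6 h, and 11.23, 10.20, 11.28 and 11.9997 at 24 h, and the groups overlapped. Its 6 h difference was -0.44 ± 0.44 (limma adjusted p = 0.641), and -0.22 without 6 h replicate 3. The fast myosin heavy chains gave no common picture. Myh2 read 9.40, 11.46 and 11.40 in vehicle, 11.65, 11.24, 9.89 and 10.003 at 6 h, and 11.10, 10.49, 10.10 and 12.55 at 24 h. The single array 24 h replicate 4 was the highest, and the rest of 24 h lay inside the vehicle range. Myh4 read 12.05, 11.52 and 12.54 in vehicle, 12.77, 12.30, 11.21 and 10.64 at 6 h, and 11.60, 10.94, 12.55 and 13.21 at 24 h. Here vehicle replicate 1 was not low. The 24 h difference was 0.31 for Myh2 and 0.041 for Myh4, and without 24 h replicate 4 both fell below 0, at -0.19 and -0.34. Myh1 spanned 12.31 to 13.91.

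The light chains and fast troponins stood near the top of the scale. The regulatory light chain gene Mylpf ran from 13.21 to 13.70 over all arrays, with a 24 h difference of 0.075, and the essential light chain gene Myl1 from 13.01 to 13.56, with 0.17. Tnnt3, the subunit that binds tropomyosin, differed by 0.33 at 24 h and the inhibitory subunit gene Tnni2 by 0.19. The calcium-binding subunit gene Tnnc2 read 12.88, 13.13 and 13.24 in vehicle and 13.27, 13.28, 13.25 and 13.50 at 24 h, so that the groups did not overlap although their means differed by 0.24. Without vehicle replicate 1 the 24 h differences were 0.019 (Tnnt3), -0.041 (Tnni2), -0.081 (Mylpf), 0.0050 (Myl1) and 0.14 (Tnnc2). As deposited, Mylpf, Myl1, Tnni2 and Tnnc2 lay below vehicle at 24 h, at -0.14, -0.072, -0.065 and -0.059. Dimmer probe sets of Tnni2 gave larger 24 h differences, 0.46 and 1.12, and a dimmer one of Myh4 gave 0.67.

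**Figure D3:**
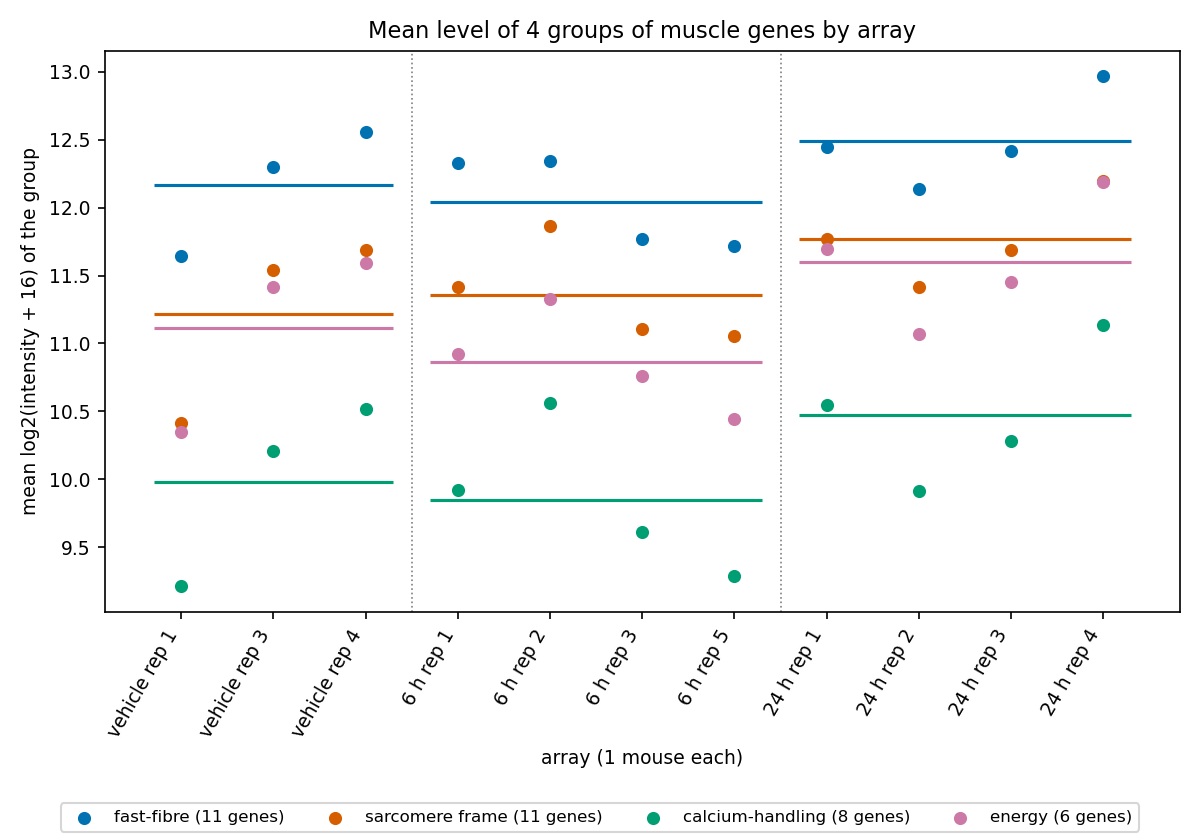
Mean log2(intensity + 16) of each role group on each of 11 arrays (points) with the group mean (horizontal lines), for fast-fibre (11 genes), sarcomere frame (11), calcium-handling (8) and energy genes (6). All 4 role groups are lowest in vehicle replicate 1 and highest in 24 h replicate 4, and the groups of mice overlap in each.

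The 11 measured genes of the sarcomere frame had median differences of 0.22 at 6 h, 0.51 at 24 h and 0.35 between 24 h and 6 h. Of these genes, 9 lay above vehicle at 6 h and 10 at 24 h, and as deposited the medians were -0.40 and -0.053. Without vehicle replicate 1 the 6 h median was -0.22, with 2 of 11 genes above vehicle, and the 24 h median 0.16, with 8 of 11. Without vehicle replicate 4 the 6 h median was 0.45, and without 6 h replicate 2 the 24 h minus 6 h median was 0.57. Acta1, the skeletal alpha-actin of the thin filament, was the 1 muscle gene below vehicle at 24 h, by -0.025, and it lay above vehicle after median scaling (0.29) and cyclic loess (0.22).

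Tmod4 caps the pointed end of the thin filament. It read 9.70, 10.58 and 10.55 in vehicle, 9.77, 10.46, 10.40 and 10.69 at 6 h, and 10.85, 10.91, 11.23 and 10.76 at 24 h. Every 24 h array was above every other array, and 24 h replicate 4 was the lowest of its group, unlike in most muscle genes. Tmod4 differed by 0.66 ± 0.27 at 24 h (limma adjusted p = 0.611), by -0.053 as deposited, by 0.37 without vehicle replicate 1 and by 0.72 without 24 h replicate 4. At 6 h the difference was 0.052 ± 0.27 (adjusted p = 0.938), and its sign turned under cyclic loess (-0.012) and as deposited (-0.66). The difference of 24 h from 6 h was 0.61 ± 0.25 (adjusted p = 0.493).

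Tpm2, the beta-tropomyosin that lies along the thin filament, read 11.10, 12.16 and 12.23 in vehicle, 12.02, 12.56, 12.06 and 11.31 at 6 h, and 12.91, 12.21, 12.46 and 12.87 at 24 h. The 24 h arrays lay high, with replicate 2 just inside the vehicle range. The difference from vehicle was 0.79 ± 0.34 at 24 h (limma adjusted p = 0.640) and was above 0 under every scaling, 0.28 as deposited. It was 0.42 without vehicle replicate 1. The largest 24 h difference of a muscle gene was that of Ttn, the giant spring protein titin, at 1.00 ± 0.57. Ttn read 10.49, 12.46 and 12.74 in vehicle and 12.89, 12.42, 12.54 and 13.72 at 24 h. Vehicle replicate 1 lay far below the rest, and without it the difference was 0.30. The nebulin gene Neb and Mybpc1 had 24 h differences of 0.67 and 0.92, and 0.13 and 0.53 without that array.

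Des, which encodes the intermediate filament desmin, read 10.47, 11.13 and 11.56 in vehicle, 10.59, 11.28, 10.20 and 9.53 at 6 h, and 11.69, 10.84, 11.41 and 12.09 at 24 h. Low values stood at 6 h, the lowest in replicate 5, and the groups overlapped. Des differed by -0.65 ± 0.42 at 6 h (limma adjusted p = 0.464), or -0.36 without 6 h replicate 5, and by 1.11 ± 0.38 between 24 h and 6 h (adjusted p = 0.393). Tcap, the titin cap of the Z-disc, went the other way at 6 h, at 0.62 ± 0.45 (adjusted p = 0.522). Its 6 h difference was 0.063 without vehicle replicate 1 and -0.092 as deposited, and 24 h minus 6 h was -0.43. The small muscle protein gene Smpx read 11.20, 12.10, 12.24 and 12.80 at 6 h, its highest value of all arrays being that of 6 h replicate 5, where many other muscle genes were low. The Z-disc genes Ldb3 and Myot differed by 0.51 and 0.41 at 24 h, by 0.17 and 0.26 without 24 h replicate 4, and by 0.25 and -0.076 without vehicle replicate 1.

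The 8 calcium-handling genes had median differences of -0.10 at 6 h, 0.45 at 24 h and 0.63 between 24 h and 6 h. As deposited the medians relative to vehicle were -0.72 and -0.17, and 24 h minus 6 h was 0.68. All 8 lay above vehicle at 24 h, from 0.076 (Atp2a1) to 0.96 (Trdn), but 2 (Trdn and Jph1) as deposited and 5 without vehicle replicate 1. The 6 h median ran from -0.45 without vehicle replicate 1 to 0.14 without vehicle replicate 4. The 24 h median was 0.13 and 0.70 in those fits, and 0.25 without 24 h replicate 4.

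Cacna1s encodes the voltage sensor of the fibre membrane that opens the release channel. It read 6.49, 7.50 and 8.01 in vehicle, 6.56, 7.43, 5.98 and 4.92 at 6 h, and 7.75, 6.96, 7.64 and 8.63 at 24 h. The 2 lowest arrays, 6 h replicates 3 and 5, were also those with the lowest actin ratios at 6 h, 0.284 and 0.0725. The difference was -1.11 ± 0.57 at 6 h (limma adjusted p = 0.366) and 1.52 ± 0.53 between 24 h and 6 h (adjusted p = 0.391). Without 6 h replicate 5 these were -0.68 and 1.09, and with the actin ratio as a covariate 0.11 and 0.97. Atp2a1, the calcium pump of fast fibres, read 11.66, 12.17, 10.75 and 9.20 at 6 h against 10.93, 12.08 and 12.54 in vehicle. Its 6 h difference was -0.90 ± 0.73, and 0.98 with the covariate. At 24 h Atp2a1 read 12.32, 10.44, 11.9997 and 12.94, where replicate 2 was low and had the lowest actin ratio of its group, 0.198. The 2 lowest Atp2a1 values of all were those of 6 h replicate 5 and 24 h replicate 2.

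Sln encodes sarcolipin, a small peptide that inhibits the calcium pump. It read 8.03, 8.23 and 8.05 in vehicle, 8.35, 9.82, 8.85 and 9.04 at 6 h, and 9.06, 8.55, 7.57 and 9.14 at 24 h. All 6 h arrays lay above all vehicle arrays, and 24 h overlapped both. The 6 h difference was 0.91 ± 0.40, or 1.88-fold, with a limma p of 0.0412 and an adjusted p of 0.293. It was 0.12 as deposited, 0.64 without 6 h replicate 2 and 0.89 with the actin ratio as a covariate. At 24 h Sln differed by 0.48, and without 24 h replicate 4 by 0.29.

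Trdn encodes triadin, which holds the release channel to its calcium store. It read 9.53, 11.20 and 11.31 in vehicle, 10.47, 11.44, 11.09 and 11.51 at 6 h, and 11.50, 11.65, 11.76 and 11.67 at 24 h. The 24 h arrays lay close together and above vehicle. The 24 h difference was 0.96 ± 0.40 (limma adjusted p = 0.615), 0.39 without vehicle replicate 1 and 0.31 as deposited. Of the other 5 Trdn probe sets, all gave a positive 24 h difference, from 0.36 to 1.27. Jph1, the junctophilin that ties the store to the fibre membrane, differed by 0.76 ± 0.37 at 24 h (adjusted p = 0.655) and by 0.25 without vehicle replicate 1.

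Pvalb encodes parvalbumin, the calcium buffer of fast fibres. It read 12.53, 13.03 and 13.20 in vehicle, 12.68, 12.94, 12.93 and 12.80 at 6 h, and 13.28, 13.20, 13.22 and 13.24 at 24 h. The 24 h arrays lay close together and above all 6 h arrays. The difference was 0.40 ± 0.16 between 24 h and 6 h (limma adjusted p = 0.501) and 0.32 ± 0.18 between 24 h and vehicle, which was -0.020 as deposited and 0.12 without vehicle replicate 1. The release channel gene Ryr1 differed by 0.62 at 24 h and by 0.13 without vehicle replicate 1, and Casq1, the store's calcium buffer, by 0.31 and -0.075.

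The 6 energy genes had median differences of -0.13 at 6 h, 0.45 at 24 h and 0.61 between 24 h and 6 h, and -0.59, -0.042 and 0.59 as deposited. Without vehicle replicate 1 the 6 h and 24 h medians were -0.53 and 0.10, and without vehicle replicate 4 they were 0.12 and 0.73. None had an unadjusted p under 0.05 against vehicle in the limma fit. Pygm, the muscle glycogen phosphorylase that frees glucose phosphate from glycogen, had the widest range of all muscle genes. It read 8.71, 9.96 and 10.36 in vehicle, 9.48, 10.04, 8.35 and 6.79 at 6 h, and 10.54, 8.24, 9.93 and 11.70 at 24 h. The 3 arrays whose actin ratio lay under 0.3 held the 3 lowest Pygm values. Pygm differed by -1.01 ± 0.86 at 6 h (limma adjusted p = 0.582), by -0.39 without 6 h replicate 5, by 1.12 with the actin ratio as a covariate and by 0.083 without those 3 arrays.

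Ampd1, the muscle AMP deaminase, read 8.87, 8.91 and 9.32 in vehicle, 8.89, 8.77, 8.21 and 8.40 at 6 h, and 9.47, 8.62, 9.10 and 10.49 at 24 h. The groups overlapped, and 24 h replicate 4 stood alone at the top. The difference was -0.46 ± 0.37 at 6 h (limma adjusted p = 0.563) and 0.85 ± 0.34 between 24 h and 6 h (adjusted p = 0.476), or 0.49 without 24 h replicate 4. Ckm, the muscle creatine kinase, read 12.16, 13.06 and 13.43 in vehicle, 12.45, 13.09, 12.58 and 12.14 at 6 h, and 13.41, 12.88, 13.18 and 13.28 at 24 h. These values overlapped too, and 24 h minus 6 h was 0.62 ± 0.28 (adjusted p = 0.537). Among the glycolytic genes, Pgam2, the muscle phosphoglycerate mutase, differed by 0.59 ± 0.31 at 24 h (adjusted p = 0.671) and Eno3, the muscle enolase, by 0.47. Without vehicle replicate 1 these were 0.20 (Pgam2) and 0.13 (Eno3), and Pgam2 was -0.024 as deposited.

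The oxygen store myoglobin, Mb, did not follow the common order of arrays at 24 h. It read 10.24, 12.41 and 11.91 in vehicle, 11.46, 11.59, 11.97 and 11.59 at 6 h, and 12.18, 12.68, 11.80 and 12.32 at 24 h. Its highest 24 h value was that of replicate 2, the array with the lowest muscle mean of that group. The 24 h difference was 0.72 ± 0.42 (limma adjusted p = 0.687), 0.083 without vehicle replicate 1 and 1.17 without vehicle replicate 3.

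Other muscle genes, from lists that were not part of the 37, also gave no call (limma adjusted p of 0.05 or less in 0 genes of any list). Of the slow-fibre genes kept, 5 of 8 lay below vehicle at 24 h, with a median of -0.31. It was below 0 under all 4 scalings, among them the values as deposited, where the median over all genes was -0.62. The list mean was 7.50 in vehicle (SD 0.21) and 7.37 at 24 h (SD 0.18). The slow and cardiac light chain gene Myl3 had this list's smallest p, at -0.50 ± 0.19 between 24 h and 6 h (adjusted p = 0.441). Of the developmental myosin and muscle transcription factor genes, 8 of 8 lay above vehicle at 24 h, with a median of 0.51, or -0.13 as deposited. Without vehicle replicate 1 this was 6 of 8 and 0.29, and without 24 h replicate 4 it was 7 of 8 and 0.22. In this list the muscle transcription factor gene Mef2c differed most clearly, by 0.94 ± 0.27 between 24 h and 6 h (adjusted p = 0.323). The dystrophin complex and membrane list had a 24 h median of 0.35, or -0.26 as deposited and 0.17 without vehicle replicate 1, and the potassium channel gene Kcnj11 differed by 0.83 ± 0.25 (adjusted p = 0.533).

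Neuromuscular junction genes had medians of -0.012 at 6 h and -0.12 at 24 h, and -0.071 and -0.16 without vehicle replicate 1. Musk, the receptor kinase of the junction, read 5.39, 5.51 and 5.21 in vehicle and 4.81, 4.00, 4.00 and 4.11 at 6 h, where 2 arrays were at the floor. Its 6 h difference was -1.14 ± 0.30 (limma adjusted p = 0.161), a size that depends on the floor. The filter for dim genes stood at 5.21, near the vehicle values and above every 6 h value. Musk was thus kept only through arrays of the other groups, a choice that favours a low 6 h value. The atrophy and stress genes had medians of 0.12 and 0.081, the second -0.16 after median scaling and both below 0 as deposited, and -0.062 and 0.030 without vehicle replicate 1. The transcription factor gene Foxo3 differed by 0.58 ± 0.20 at 6 h (adjusted p = 0.232; -0.20 as deposited). The 12 further energy genes had a 24 h median of 0.46, or -0.13 as deposited, and 0.13 without vehicle replicate 1, with 7 of 12 above vehicle. In that list Fabp3, the fatty acid carrier of muscle and heart, read 8.11, 9.39 and 9.18 in vehicle, 8.73, 10.01, 9.24 and 11.16 at 6 h, and 10.14, 10.91, 11.35 and 10.48 at 24 h.

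**Figure D4:**
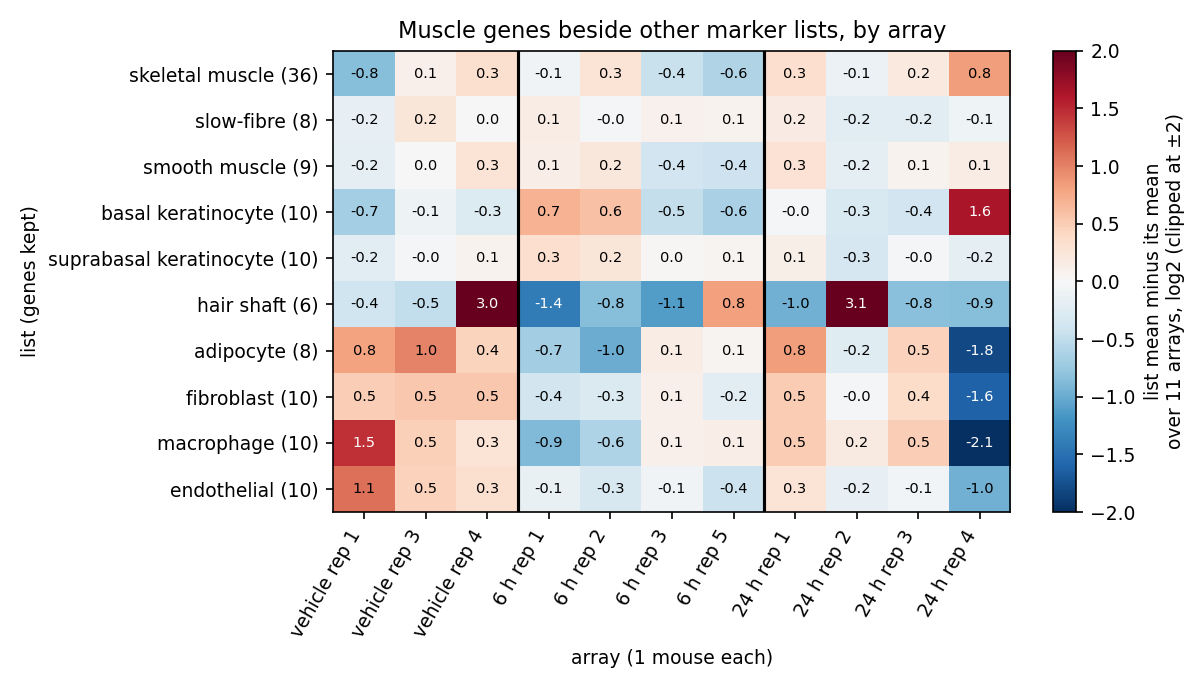
Mean of each marker list on each of 11 arrays, as log2(intensity + 16) minus the list's mean over the arrays, with the number of genes kept in brackets and colours clipped at 2 on either side. In 24 h replicate 4 the skeletal muscle and basal keratinocyte lists are at their highest and the adipocyte, fibroblast, macrophage and endothelial lists at their lowest.

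Markers of other cell types moved between the same arrays. In 24 h replicate 4, which had the highest muscle mean, the list means were the lowest of all arrays for fibroblast (9.48), macrophage (8.05), adipocyte (8.24) and endothelial genes (6.31), and the highest for basal keratinocyte genes (11.46). In vehicle replicate 1, which had the lowest muscle mean, they were the highest for macrophage (11.62) and endothelial genes (8.36) and the lowest for basal keratinocyte genes (9.14). Their ranges in vehicle, 6 h and 24 h follow, over 10 genes of 10 kept in each list. The macrophage list ran from 10.43 to 11.62 in vehicle, 9.27 to 10.29 at 6 h and 8.05 to 10.67 at 24 h. The fibroblast list ran from 11.59 to 11.64, 10.73 to 11.20 and 9.48 to 11.61. The endothelial list ran from 7.57 to 8.36, 6.84 to 7.19 and 6.31 to 7.54. The basal keratinocyte list ran from 9.14 to 9.72, 9.18 to 10.52 and 9.45 to 11.46. The macrophage, endothelial and basal keratinocyte lists were thus at an extreme on both of these arrays. The fibroblast list was so on 24 h replicate 4 alone, and in vehicle replicate 1 it read 11.59, close to the other vehicle arrays. The part of cell type makeup in the muscle differences was not tested.

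Smooth muscle, which shares Des and Tpm2 with the striated fibre, had 9 of 10 markers kept, with medians of 0.022 at 6 h and 0.11 at 24 h (-0.15 and -0.053 after median scaling, -0.77 and -0.55 as deposited, and -0.067 and 0.039 without vehicle replicate 1). Its list mean ran from 7.57 to 8.02 in vehicle, 7.33 to 7.98 at 6 h and 7.57 to 8.05 at 24 h, a total range of 0.71 against 1.68 for the skeletal muscle mean.

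**Figure D5:**
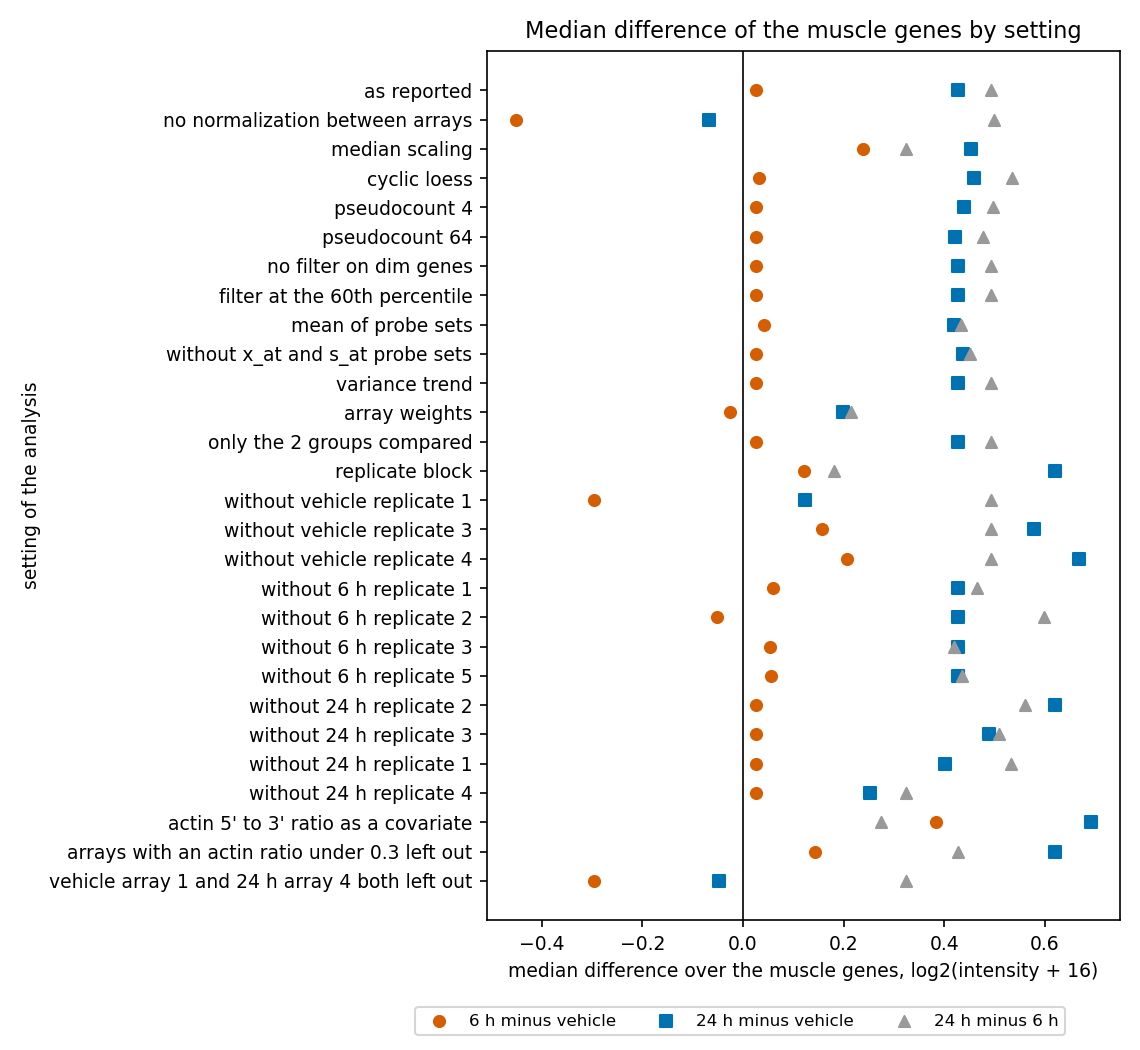
Median difference over the muscle genes under each setting of the analysis, for 3 comparisons (symbols). The 24 h minus 6 h median stays right of 0 in every setting shown, the 24 h minus vehicle median lies at -0.068 as deposited and at -0.048 without vehicle array 1 and 24 h array 4, and the 6 h minus vehicle median lies on both sides of 0.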

How the data were processed

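Per the labels' protocols, total RNA from skin was prepared for 3' expression arrays, 1 per mouse. The authors deposited linear intensities of 45101 probe sets; which software, background correction and scaling made them is not given in the sources used here. The platform annotation paired 34958 probe sets with 1 gene and 932 with several, and left 9211 unnamed. Intensities were quantile-normalized, set to at least 0 and taken as log2(intensity + 16), which understates differences of dim genes. Genes whose brightest probe set lay above the array's 40th percentile on at least 3 arrays were kept (13709 of 18194).

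Groups were compared with limma 3.58.1 (lmFit, eBayes) in R 4.3.3, in 1 fit over 11 arrays, two-sided, with Benjamini-Hochberg adjustment over all genes and a threshold of 0.05. P-values measure the spread between mice. In data simulated for 24 h minus vehicle over 13709 genes, 34% of 100 genes planted at a log2 difference of 1 and 80% of 100 planted at 2 were called. The planted genes were drawn from all genes kept, with noise independent between genes. The muscle genes had a larger SD within groups (median 0.54 against 0.34) and moved together, so these shares do not carry over to them. The members and lists were chosen with earlier results of these data known. In each comparison the 2 members of smallest p per role group, with Tmod4 and Myoz1, are given with SE and adjusted p; other muscle lists are given by 1 gene of smallest p. Members named beyond that were chosen after their values were seen.

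Same-numbered vehicle and 24 h arrays had correlations of 0.246, 0.135 and 0.205 over genes in their deviations from the group mean. Differently numbered ones reached 0.211 (24 h replicate 2 with vehicle replicate 4) and 0.169 (24 h replicate 3 with vehicle replicate 1). These correlations do not set the numbers apart as pairs, and the labels do not say what a number marks. The fit with the replicate block stands beside 24 h minus vehicle as an alternative only. Same-numbered 6 h arrays gave -0.120 and -0.0738 with vehicle. Alternatives were the normalization, pseudocount, filter, probe set choice, variance trend, array weights, the groups fitted, the block and each array left out. The actin ratio as a covariate, arrays with a ratio under 0.3 left out, and vehicle replicate 1 and 24 h replicate 4 left out together were added after seeing the data.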

Additional observations from a re-analysis of the deposited data

Results flagged for a closer look

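In 4 muscle genes the array 24 h replicate 4 was flagged as distant from the other 3 arrays of its group. The flag sets the gap to the next array against the range of the group's 4 values, so a small gap can be flagged. Tnni2 read 13.62 there, and 13.49 on the next array. Tnnc2 read 13.50 and 13.28, Ldb3 11.42 and 10.18, and Jph1 10.56 and 9.85. Genes without a flag could have a wider gap, as Myh2 (12.55 and 11.10) and Ryr1 (11.21 and 9.80) did. The array 24 h replicate 4 was the highest of its group in 26 of 36 muscle genes, so the flags do not list all genes in which it was high. In all, 74 groups of 4 values were examined for 1 distant array, of which chance alone gives about 1 in 20, or 3.7.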

How the results depend on the processing

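No muscle gene was called in any comparison in 11 of 11 fits that left out 1 array. With each array left out, the median over the muscle genes ran from -0.30 to 0.21 at 6 h, from 0.12 to 0.67 at 24 h and from 0.32 to 0.60 for 24 h minus 6 h. With array weights 1 gene was called at 6 h (Sln, adjusted p = 0.0368) and 1 between 24 h and 6 h (Actn3, 0.0377), in a fit that called 2499 and 422 of all genes. In the values as deposited the medians were -0.45 at 6 h and -0.068 at 24 h, with all genes at -0.68 and -0.62, and 859 of all genes were called at 6 h (857 of them lower) and 6 at 24 h, none of them a muscle gene. With vehicle replicate 1 and 24 h replicate 4 both left out, the 24 h median was -0.048. The replicate block gave medians of 0.12 at 6 h, 0.62 at 24 h and 0.18 for 24 h minus 6 h, with 0 calls, and dropped arrays with no partner. The other 157 counts of calls and medians over all muscle genes stayed within the spread between replicates or within 1.5 times. That spread was 0.46, more than the 24 h median itself (0.43), so a median could fall to 0 and still count as within it. Counts of 0 calls that stayed at 0 are among them. Staying within these limits is thus a weak sign of stability. Among single genes, role groups and counts of genes above 0, 1064 values stayed within the same limits (for single genes, kept their sign and side of the threshold), 13 medians or counts moved further, 28 values of single genes turned sign and 2 gained a call. Among those 13, the genes above vehicle at 6 h numbered 1 as deposited, 4 without vehicle replicate 1 and 32 with the actin ratio as a covariate. Role group medians at 6 h also changed sign with single arrays left out, running from -0.30 to 0.12 (fast-fibre), -0.22 to 0.45 (sarcomere frame), -0.45 to 0.14 (calcium-handling) and -0.53 to 0.12 (energy). At 24 h they were below 0 as deposited, at -0.071, -0.053, -0.17 and -0.042, and with vehicle replicate 1 and 24 h replicate 4 both left out, at -0.060, -0.030, -0.11 and -0.013. Single genes turned sign as follows, and the cause was not tested. As deposited, where all genes had medians of -0.68 at 6 h and -0.62 at 24 h, some single genes lay below 0. Tcap was -0.092 and Tmod4 -0.66 at 6 h, and Myoz1 -0.071, Tmod4 -0.053 and Pgam2 -0.024 at 24 h. At 6 h Tmod4 turned to -0.012 with cyclic loess, -0.16 with array weights, -0.054 with the block and -0.24 with both arrays left out, and ran from -0.24 to 0.24 with single arrays left out. Myoz1 at 6 h turned to 0.060 with array weights and 0.12 with the block, and ran from -0.33 to 0.19. With the actin ratio as a covariate the 6 h values were 0.49 (Mybpc2), 0.26 (Des), 0.11 (Cacna1s), 0.040 (Ampd1), 1.12 (Pygm), -0.086 (Tmod4) and 0.24 (Myoz1). Without the 3 arrays of low actin ratio they were 0.15 (Mybpc2), 0.083 (Pygm), -0.16 (Tmod4) and 0.092 (Myoz1). Genes near the top of the scale and the floor of 4.00 bound what differences can be seen.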

Other observations

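Of all 13709 genes kept, Fabp3 had the largest positive difference between 24 h and vehicle, at 1.83 ± 0.53 (limma adjusted p = 0.533). No 24 h value reached down to the vehicle values, and the difference was 1.11 as deposited, 1.43 without vehicle replicate 1 and 1.91 without 24 h replicate 4. Pdk4, the kinase that holds back pyruvate oxidation and a gene of the atrophy and stress list, read 9.02, 9.46 and 9.32 in vehicle, 10.27, 10.21, 9.39 and 10.27 at 6 h, and 8.78, 11.03, 11.29 and 11.83 at 24 h. The 24 h arrays fell on both sides of vehicle, with replicate 1 the lowest of all 11 arrays. Klf15 in the same list differed by -1.22 ± 0.44 at 24 h (limma adjusted p = 0.588). Pdk4 and Klf15 were picked after their values were seen.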
